A study of Mus musculus with 18 samples.

Results

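Mt1, Mt2, Slc39a14, Slc39a10 and Slc30a1 are 5 of the 29456 mouse genes with a count in tibialis anterior (TA) muscle of tumour-bearing mice, and all 5 were among the 16096 genes that passed the filter on low counts. They were chosen by symbol, as metallothioneins and zinc transporters, and selected on their counts in each tumour group against its control in these same libraries. Their differences between tumour-bearing and control muscle are therefore given as a description, with no test.

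RNA was sequenced from 18 TA muscles in 9 groups of 2 mice, which the labels call biological replicates. C57BL/6 mice with LLC cells (a mouse lung carcinoma line) placed in muscle were set against PBS controls, and the labels do not say which muscle received the cells. C57BL/6 mice with an orthotopic injection of 50000 KPC cells or of 1000 KPCML1 cells shared the same 2 controls, which received Matrigel alone. CD2F1 mice with C26 cells (a mouse colon carcinoma line) under the skin were set against PBS controls. The genetic KPP model on C57BL/6, in which tamoxifen induces the tumour, was set against mice of that model without tumour. The alleles of the KPP model, its driver, whether its controls received tamoxifen, and the age and sex of the mice are not given in the labels.

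Metallothioneins are small cysteine-rich proteins that bind zinc and copper, and Mt1 and Mt2 encode the forms made in most tissues. Their transcription is switched on by zinc through the zinc-sensing factor MTF-1, which binds short metal response elements, and also by glucocorticoids and inflammatory cytokines. The SLC39 (ZIP) proteins bring zinc into the cytosol and the SLC30 (ZnT) proteins take it out. Slc39a14 encodes ZIP14, an importer of zinc, iron and manganese that is induced in inflammation and has been described as raised in wasting muscle of tumour-bearing mice. Slc39a10 encodes ZIP10, an importer of the cell surface that zinc represses in some cells, and Slc30a1 encodes ZnT1, the exporter of the cell surface and a classic target of MTF-1.

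Mt2 and Mt1 lie side by side on the plus strand of chromosome 8 in build mm10, Mt2 at chr8:94172664-94173568 and Mt1 at chr8:94179082-94180327. The annotation (GENCODE M21) places 5513 bases and 0 genes between them. Slc39a14 spans chr14:70303469-70351425 on the minus strand, Slc39a10 spans chr1:46807544-46892852 on the minus strand, and Slc30a1 spans chr1:191906767-191913247 on the plus strand. The 250 bases before the RefSeq start of Mt1, Mt2 and Slc30a1 are shown because these 3 genes are known targets of MTF-1, and Slc30a1 stayed near its control level where Mt1 and Mt2 did not. The sequences are RefSeq's (build GRCm38.p6), at chr8:94178839-94179088 for Mt1, chr8:94172368-94172617 for Mt2 and chr1:191906531-191906780 for Slc30a1. Each is on the plus strand, 5′ to 3′. Capitals mark the letters TGCACNC or TGCGCNC, the core of the metal response element, on either strand.
Mt1: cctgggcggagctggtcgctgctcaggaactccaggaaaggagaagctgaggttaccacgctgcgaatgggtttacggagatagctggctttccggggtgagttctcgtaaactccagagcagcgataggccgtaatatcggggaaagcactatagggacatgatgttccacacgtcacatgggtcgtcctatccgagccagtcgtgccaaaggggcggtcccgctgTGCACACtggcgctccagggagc
Mt2: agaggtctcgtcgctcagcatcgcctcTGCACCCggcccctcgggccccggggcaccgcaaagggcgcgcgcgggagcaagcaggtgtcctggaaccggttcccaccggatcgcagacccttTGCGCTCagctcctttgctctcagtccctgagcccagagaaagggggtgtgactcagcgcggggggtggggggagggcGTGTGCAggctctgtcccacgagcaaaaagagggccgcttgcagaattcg
Slc30a1: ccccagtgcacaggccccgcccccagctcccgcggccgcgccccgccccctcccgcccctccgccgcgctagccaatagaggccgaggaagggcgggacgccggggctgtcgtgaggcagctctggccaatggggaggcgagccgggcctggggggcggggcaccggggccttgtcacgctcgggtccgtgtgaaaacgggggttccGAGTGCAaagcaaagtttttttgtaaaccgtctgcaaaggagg

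The window of Mt2 held 3 matches, and those of Mt1 and Slc30a1 held 1 each. These windows end before the GENCODE start of Mt2 and after those of Mt1 and Slc30a1, and the counts depend on where a window ends. Of 32851 RefSeq windows of this length, 21.4% held at least 1 match and 1.26% held at least 3. Over a longer window of 300 bases, which adds the first 50 bases after the start, Mt2 held 4 matches, Mt1 held 3 and Slc30a1 held 2. As many or more were found in 0.517% of such windows for Mt2, 1.97% for Mt1 and 7.11% for Slc30a1. The letters TTCNNNGAA, which STAT factors bind, were in 7.02% of the 250-base windows and not in those of Mt1, Mt2 and Slc30a1. The letters TGACNNNGC of the antioxidant response element were in 10.2% of the windows, once each in those of Mt2 and Slc30a1. These matches describe the letters in these windows and do not show that a factor was bound.

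Libraries held 22432866 to 36471404 fragments, and levels are given as CPM, the count scaled to the TMM-normalised library size. Mitochondrial transcripts took 14.6 to 22.4% of the fragments in controls and 5.94 to 16.9% in tumour-bearing muscles, the lowest share being that of the second C26 muscle, which held the most Mt1 and Mt2. The part of this share in the results was not tested. The summed CPM of 8 myofibre markers was 110364 to 133214 in the controls and 57804 to 132648 in the tumour-bearing muscles, so muscle was the main tissue in every library, and the lowest sum was in C26. The 4 epithelial markers Krt8, Krt18, Krt19 and Epcam summed to 0.785 to 4.49 CPM in controls and 0.822 to 4.01 CPM in tumour-bearing muscle. Both LLC muscles (2.78 and 4.01 CPM) lay above both LLC controls (1.05 and 2.38 CPM). The KPCML1 muscles (1.29 and 2.32 CPM) also lay above their controls (0.785 and 1.26 CPM). Those of C26 and KPP lay below their controls, and those of KPC overlapped them.

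The metallothioneins were low in control muscle and far higher in most tumour-bearing muscles. The 2 Matrigel controls held 6.97 and 7.64 CPM of Mt1, against 393 and 551 CPM in KPC and 30.2 and 104 CPM in KPCML1. The C26 controls held 9.26 and 7.77 CPM against 530 and 1434 CPM in the tumour-bearing mice. The KPP controls held 15.4 and 20.8 CPM against 342 and 877 CPM. All of these tumour-bearing muscles lay above every control of the series. In LLC the level was 14.8 and 43.0 CPM against 9.51 and 6.54 CPM in the controls, so both muscles were above their own controls, but the lower of them was below both KPP controls.

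Relative to its control, the log2 difference of Mt1 (tumour minus control, ± SE of the fit) was 6.85 ± 0.78 in C26, 6.01 ± 0.75 in KPC, 5.07 ± 0.72 in KPP, 3.20 ± 0.67 in KPCML1 and 1.85 ± 0.64 in LLC. The corresponding ratios of mean CPM were 115, 64.6, 33.6, 9.18 and 3.6. The order of the tumour groups by level was C26, KPP, KPC, KPCML1 and LLC. The libraries of C26 and KPP overlapped, as did those of KPP and KPC and those of KPCML1 and LLC, whereas KPC stood apart from KPCML1. The lower values rested on 1 library. Without the second LLC muscle the log2 difference in LLC was 0.89, and without the second KPCML1 muscle that in KPCML1 was 2.09. Without the second muscle it was 5.95 in C26 and 4.31 in KPP.

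Mt2 was higher with a tumour in the same models, over a wider span of levels. Its level was 5.71 and 3.04 CPM in the Matrigel controls, 420 and 634 CPM in KPC and 17.7 and 58.8 CPM in KPCML1. In C26 it was 715 and 1479 CPM against 2.67 and 2.13 CPM in the controls. In KPP it was 255 and 661 CPM against 11.7 and 19.2 CPM. The C26 and KPC muscles therefore held at least 420 CPM of a transcript that was at most 5.71 CPM in their controls. In LLC the level was 8.07 and 49.1 CPM against 5.05 and 1.35 CPM, and the lower tumour library was below both KPP controls. The lower KPCML1 muscle, at 17.7 CPM, lay between the KPP controls, so 8 of the 10 tumour-bearing muscles were above all 8 controls.

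The log2 difference of Mt2 was 8.84 ± 1.07 in C26, the largest of the 25 differences of the 5 genes in the 5 models, and 6.91 ± 0.98 in KPC. It was 4.90 ± 0.89 in KPP, 3.17 ± 0.86 in LLC and 3.12 ± 0.84 in KPCML1. The ratios of mean CPM were 457, 121, 29.7, 8.92 and 8.75. In LLC the difference was 1.35 without the second tumour-bearing muscle, 3.99 without the first, and 4.39 without the first control, which held 5.05 CPM. In KPCML1 it was 2.05 without the second muscle and 3.79 without the first, in C26 it was 8.21 without the second, and in KPP it was 4.12 without the second.

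**Figure D1:**
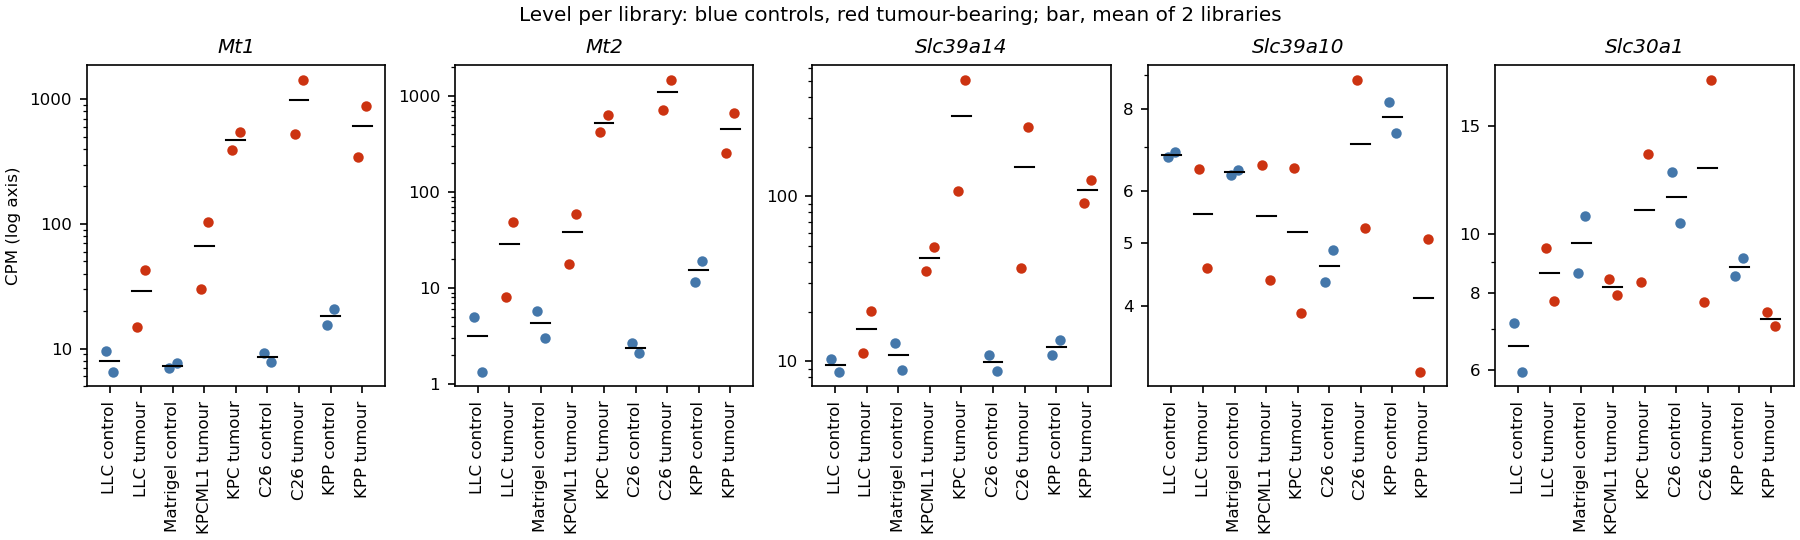
Level of each gene in each of the 18 libraries, in CPM on a log axis, by group. Blue points are controls, red points are tumour-bearing muscles, and each bar is the mean of 2 libraries. Mt1 and Mt2 reach 1434 and 1479 CPM in C26 and Slc39a14 reaches 509 CPM in KPC, whereas Slc39a10 stays between 3.18 and 8.86 CPM and Slc30a1 between 5.97 and 17.8 CPM.

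Together the pair took a share of all transcripts, in TPM (which also accounts for transcript length), of 0.00235 to 0.0108% in the 8 control muscles. The share was 0.555 and 1.56% in C26, 0.272 and 0.383% in KPC and 0.174 and 0.523% in KPP. It was 0.0189 and 0.0637% in KPCML1 and 0.00795 and 0.0390% in LLC. The second C26 muscle thus held the highest share of the series, and the first LLC muscle was within the control range.

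The balance between the pair differed between groups. The TPM of Mt1 was 3.01 and 3.17 times that of Mt2 in the C26 controls and 0.644 and 0.839 times in the C26 tumour-bearing muscles. It was 1.03 and 2.09 times in the Matrigel controls, 0.807 and 0.752 times in KPC, and 1.38 and 1.51 times in KPCML1. In LLC it was 1.54 and 4.14 times in controls, against 1.37 and 0.7 times in tumour-bearing muscle. Mt2 was thus above Mt1 in both KPC muscles, both C26 muscles and 1 LLC muscle, and in 1 of the 8 controls. KPP showed no such shift, with ratios of 1.15 and 1.13 in tumour-bearing muscle beside 1.15 and 0.94 in its controls. The sequences of the pair are closely related, so fragments shared between them were divided by the quantification, and the ratio depends on that division. In controls it also rests on few fragments.

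**Figure D2:**
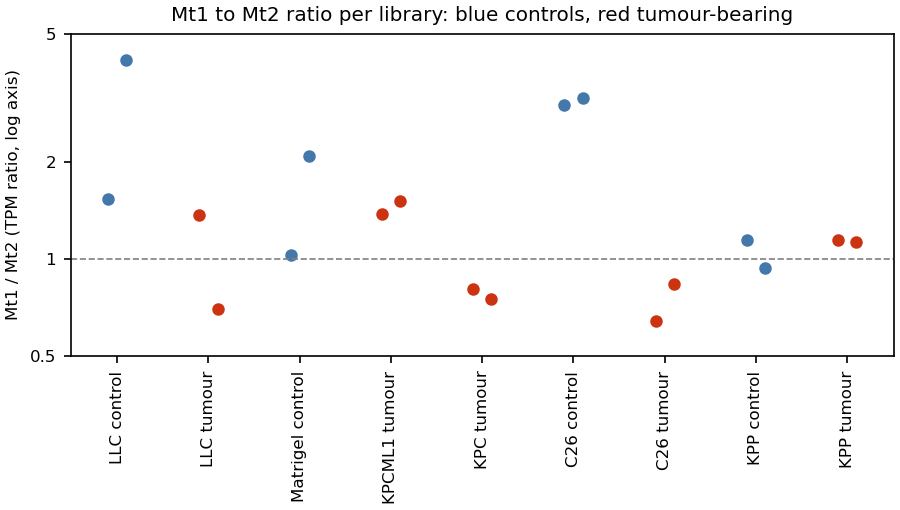
Ratio of Mt1 TPM to Mt2 TPM in each of the 18 libraries, on a log axis, by group. Blue points are controls, red points are tumour-bearing muscles, and the dashed line marks equal levels. The ratio is below 1 in both KPC, both C26 and 1 LLC tumour-bearing muscle, and in 1 of the 8 controls, a KPP control at 0.94.

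The importer Slc39a14 was higher in the same muscles as the metallothioneins. Its level lay between 8.68 and 13.4 CPM in all 8 controls, so the highest was 1.54 times the lowest, beside 3.19 times for Mt1 and 14.2 times for Mt2. It was 108 and 509 CPM in KPC and 35.4 and 49.1 CPM in KPCML1, against 12.9 and 8.90 CPM in their shared controls. In C26 it was 36.6 and 263 CPM against 11.0 and 8.73 CPM. These 3 groups lay above every control, and the muscles of KPC differed 4.73-fold from each other and those of C26 differed 7.19-fold. The KPP muscles were closer to each other, at 91.6 and 126 CPM against 10.9 and 13.4 CPM in controls. In LLC the level was 11.3 and 20.1 CPM against 10.4 and 8.68 CPM, and the lower LLC muscle was inside the CPM range of the controls of the other models. In TPM the LLC muscles held 4.69 and 9.87 against 2.14 and 1.92 in their controls. The highest of all 8 controls, a KPP control, held 4.25 TPM. Short transcripts with few fragments weigh heavily in these TPM values. In the first LLC muscle, Slc39a14-203 took 18.3% of the TPM from 4.7 fragments, and Slc39a14-207 took 13.6% from 2.0 fragments. The main transcript, Slc39a14-202, alone held 2.45 and 4.91 TPM in the LLC muscles, against 1.78 and 1.51 TPM in their controls.

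The log2 difference of Slc39a14 was 4.82 ± 0.82 in KPC, 3.93 ± 0.79 in C26, 3.17 ± 0.77 in KPP, 1.95 ± 0.74 in KPCML1 and 0.72 ± 0.73 in LLC. The first and the second of these values depended on 1 library each. Without the second KPC muscle the difference was 3.24, and without the second C26 muscle it was 1.89. Without the first muscle of either it was 5.60 and 4.71. In KPP the range was 2.99 to 3.38 when any 1 of the 4 libraries was left out.

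The importer Slc39a10 and the exporter Slc30a1 stayed between 3.18 and 17.8 CPM in every library. Slc39a10 was 6.75 and 6.88 CPM in the LLC controls and 6.48 and 4.57 CPM with the tumour. It was 6.35 and 6.45 CPM in the Matrigel controls, 6.49 and 3.91 CPM in KPC and 6.58 and 4.39 CPM in KPCML1. The orthotopic groups therefore overlapped their controls. In KPP the level was 3.18 and 5.06 CPM against 8.21 and 7.34 CPM, so both muscles were below both controls. In C26 it was 8.86 and 5.27 CPM against 4.36 and 4.87 CPM, so both muscles were above both controls. The log2 difference was -0.91 ± 0.33 in KPP, 0.61 ± 0.32 in C26, -0.30 ± 0.32 in LLC and KPC, and -0.22 ± 0.32 in KPCML1. In C26 it was 0.16 without the first tumour-bearing muscle. The difference between the models in direction was not tested.

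Slc30a1 was 7.75 and 17.8 CPM in C26 against 12.6 and 10.4 CPM in the controls, and 8.35 and 13.5 CPM in KPC against 8.65 and 10.7 CPM. In both models 1 muscle was above and 1 below the controls. It was 8.45 and 7.96 CPM in KPCML1, 9.47 and 7.77 CPM in LLC against 7.17 and 5.97 CPM, and 7.47 and 7.09 CPM in KPP against 8.53 and 9.14 CPM. The LLC muscles were thus above their controls and the KPCML1 and KPP muscles below theirs. The log2 difference was between -0.28 ± 0.32 in KPP and 0.39 ± 0.32 in LLC. In C26 it was 0.15 ± 0.32, and -0.58 without the second tumour-bearing muscle.

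**Figure D3:**
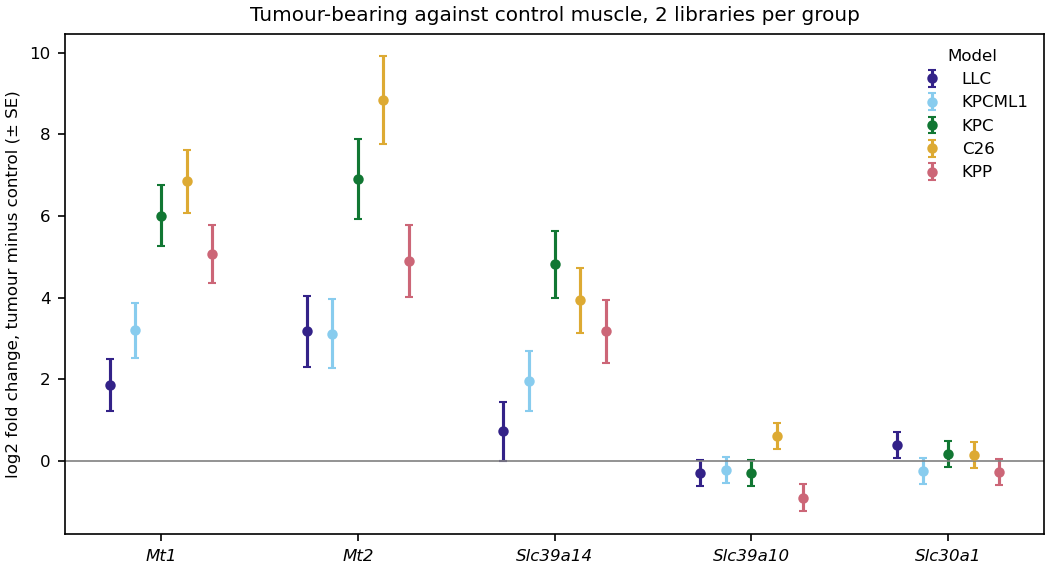
Log2 difference between tumour-bearing and control muscle for each gene and model, with the SE of the fit as bars and 2 libraries per group. KPC and KPCML1 share their controls. Mt1, Mt2 and Slc39a14 lie above 0 in all 5 models, from 0.72 for Slc39a14 in LLC to 8.84 for Mt2 in C26, whereas Slc39a10 and Slc30a1 lie between -0.91 and 0.61.

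Of the 5 genes, those with an adjusted p under 0.05 by edgeR's quasi-likelihood test were 1 in LLC (Mt2), where 13.6% of all tested genes were called, and 2 in KPCML1 (Mt1 and Mt2), where 8.54% were. In KPC and in C26 they were 3, Mt1, Mt2 and Slc39a14, with 29.1% and 21.3% of all tested genes called. In KPP they were 4, the same 3 higher and Slc39a10 lower, with 36.7% called. Since the genes were listed from these contrasts, the counts carry no evidence beyond the values. In number of genes with both tumour libraries above both controls, LLC and C26 had 4 and the other models 3. Such a separation was found in 31.7% of all tested genes in LLC, 34.3% in C26, 31.4% in KPC, 30.8% in KPCML1 and 30.2% in KPP. Both libraries were below both controls for 1 gene in LLC and in KPCML1, for 2 in KPP and for 0 in KPC and C26, and the shares of all tested genes were 31.9%, 29.2%, 33.9%, 34% and 31.5% in that order. The authors' deposited tables, made with DESeq2 for 4 of the models, give log2 values of 6.83 ± 0.40 (SE) for Mt1 and 8.82 ± 0.36 for Mt2 in C26. For KPC they give 6.06 ± 0.29 for Mt1 and 5.00 ± 1.01 for Slc39a14, and for LLC 1.54 ± 0.80 for Mt1 and 1.29 ± 0.30 for Slc39a14.

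KPC and KPCML1 were compared directly. This contrast is the difference between the KPC and KPCML1 contrasts, which the listing used and which share their controls. Its p-values and intervals are therefore not independent of the listing. The groups differ in the cells and in their number, so these cannot be told apart. All 4 muscles separated for Mt1, Mt2 and Slc39a14, with KPC higher. The log2 difference (KPC minus KPCML1) was 2.82 ± 0.64 for Mt1, with a 95% interval of 1.44 to 4.19 and an adjusted p of 0.0242 by edgeR's quasi-likelihood test. For Mt2 it was 3.79 ± 0.84 (1.99 to 5.58, adjusted p 0.0219 by the same edgeR test), and for Slc39a14 2.87 ± 0.75 (1.26 to 4.47, adjusted p 0.0387). These 3 of the 5 genes passed, all higher in KPC, where 5.99% of all tested genes passed, 2.94% higher and 3.05% lower. Slc39a10 differed by -0.08 ± 0.32, with an interval of -0.77 to 0.61, and Slc30a1 by 0.41 ± 0.32, with an interval of -0.28 to 1.09. Neither passed (adjusted p 0.916 and 0.474 by edgeR), and the intervals leave room for a difference of either sign.

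Each of the 3 calls was lost when the first KPCML1, the second KPCML1 or the second KPC muscle was left out, and kept without the first KPC muscle. For Mt1 the edgeR adjusted p was then 0.173, 0.0505 and 0.125 in that order, for Mt2 0.171, 0.0689 and 0.111, and for Slc39a14 0.229, 0.145 and 0.409. The direction stayed the same, and the log2 difference without the second KPC muscle was 2.52 for Mt1, 3.43 for Mt2 and 1.31 for Slc39a14. It was 3.97 for Mt1 and 4.91 for Mt2 without the second KPCML1 muscle, and 2.19 and 3.17 without the first.

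Without a tumour, the metallothioneins were highest in the KPP controls. The mean CPM there was 2.48 times that of the lowest control group for Mt1 and 6.43 times for Mt2. Slc39a14 and Slc39a10 were also highest in the KPP controls, 1.27 and 1.68 times the lowest group, and Slc30a1 was highest in the C26 controls, 1.75 times the LLC controls. In a joint edgeR quasi-likelihood test of the 4 control groups, which called 2.79% of all tested genes, none of the 5 genes passed. The adjusted p was 0.593 for Mt1, 0.224 for Mt2 (0.0175 unadjusted), 0.993 for Slc39a14, 0.628 for Slc39a10 and 0.567 for Slc30a1. Strain, vehicle and experiment cannot be told apart in this test.

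Within a group, the 2 muscles kept the same order for several of the genes. The muscle with more Mt2 also had more Slc39a14 in all 9 groups, and the one with more Mt1 had more Mt2 in 8 and more Slc39a14 in 8. Slc39a10 ran the other way, with the muscle higher in Slc39a14 also higher in Slc39a10 in 1 of 9 groups. These counts share the libraries and their depth, and have no test. Of 9583 genes with a mean of at least 5 CPM in some group, those most like Mt1 over the 18 libraries by Pearson's r of log2 CPM were Sec63 (0.97), Lcn2 (0.97) and Map1lc3b (0.96), and the same 3 led for Mt2. Lcn2 encodes the iron-trapping protein lipocalin 2, and Map1lc3b a protein of autophagosomes. Those most like Slc39a14 were Spsb1 (0.97), Syn2 (0.96) and Lrrc58 (0.96). For Slc39a10 the highest r was 0.84, with Aida, Rsu1 and Arid4a, and for Slc30a1 it was 0.81 with Togaram1. These values span tumour-bearing and control libraries together, and include the differences between them.

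Most of the fragments of each gene came from 1 transcript. Mt1-201 held 94.6% of the Mt1 fragments, Mt2-201 99.8%, Slc39a10-201 99.0% and Slc30a1-201 99.9%. Slc39a14-202 held 90.0%, and Slc39a14-208, a retained-intron form, 5.37%. By TPM, Slc39a14-202 held 83.4 and 78.7% in the LLC controls and 52.3 and 49.8% in the LLC tumour-bearing muscles. In the KPP controls it held 54.7 and 57.8%. Shares by TPM give weight to short transcripts with few fragments. By fragments, Slc39a14-202 held 96.43 and 91.12% in the LLC controls and 90.25 and 86.11% in the LLC tumour-bearing muscles. Mt1-202, an unspliced model of 1 exon with 3.17% of Mt1 fragments over all libraries, is named here after its values were seen. It held 21.5 and 13.7% of Mt1 fragments in the LLC tumour-bearing muscles, against 0.92 and 0% in the LLC controls. That amounts to 80.3 and 158.6 fragments against 2.1 and 0. In KPCML1 the share was 13.3 and 4.61%, and in the other 12 libraries, leaving out the LLC controls, it was 0.89 to 7.21%.

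Per length, zinc transporters differed widely in level in control muscle. The median TPM over the 8 controls was 38.5 for Slc30a9, 30.4 for Slc39a7, 17.2 for Slc39a1 and 11.9 for Slc39a13. Mt1 was at 24.1 TPM and Mt2 at 13.6, in the range of these transporters. Slc39a14 was at 2.92, Slc30a1 at 1.78 and Slc39a10 at 1.15 TPM, so all 3 lay below these transporters. In tumour-bearing muscle the median of 10 libraries was 1074 TPM for Mt1, 1156 TPM for Mt2 and 19.3 TPM for Slc39a14. Slc39a10 was then at 1.19 and Slc30a1 at 2.04 TPM.

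Few other genes of zinc handling passed the test. Of 25 other genes (the remaining SLC39 and SLC30 transporters, Tmem163, Mt3, Mt4 and Mtf1), 18 could be tested. The edgeR test called 0 higher and 1 lower in LLC, KPCML1 and C26, 0 higher and 2 lower in KPC, and 1 higher and 4 lower in KPP. The share of all tested genes called higher was 7.39% in LLC, 4.16% in KPCML1, 11.5% in C26, 15.3% in KPC and 17.4% in KPP, and the share called lower was 6.23%, 4.38%, 9.8%, 13.7% and 19.3%. The counts of lower genes were near these shares and are not a result about zinc genes as a group. The median log2 difference of the 18 genes was -0.12 in LLC, -0.27 in KPCML1, 0.04 in C26, -0.23 in KPC and -0.22 in KPP, beside -0.00, 0.02, 0.04, -0.01 and -0.04 for all tested genes.

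Among the importers, Slc39a2 was lower in KPC, at 0.221 ± 0.162 CPM (SD, n = 2) against 1.94 ± 0.634 in the controls, a log2 difference of -3.08 ± 0.54 (edgeR adjusted p 0.0014). Slc39a1, an importer of the cell surface, was lower in KPC by a log2 difference of -0.63 ± 0.14 (edgeR adjusted p 0.00527). Both held when any 1 of the 4 libraries was left out. Slc39a2 was also lower in KPC than in KPCML1 (-2.79 ± 0.54, edgeR adjusted p 0.0159), a call decided by single libraries. Its level also differed between controls. Of the 18 tested zinc genes, Slc39a2 was the 1 called in the joint edgeR test of the 4 control groups, which called 2.79% of all tested genes. In KPP, Slc39a1 (-0.46 ± 0.14) and Slc39a3 (-0.87 ± 0.26) were lower and Slc39a7, which releases zinc from the endoplasmic reticulum, was higher (0.58 ± 0.19). Slc39a9 (-0.74 ± 0.26), named here after its value was seen, was the other importer called there. Without a single library these calls could be lost. The adjusted p of Slc39a1 reached 0.121 (lost without the first control or the first KPP tumour muscle), that of Slc39a3 0.209 (without the first control or the second tumour muscle) and that of Slc39a7 0.167 (without either control or the first tumour muscle).

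Among the SLC30 transporters, Slc30a2, which loads zinc into vesicles, was lower in KPCML1 (4.45 ± 0.215 against 20.9 ± 4.11 CPM, SD, n = 2; log2 -2.23 ± 0.52) and in LLC (-1.76 ± 0.52), and higher in KPC than in KPCML1 (2.93 ± 0.53). The edgeR adjusted p was 0.0197, 0.0375 and 0.012. The first and the second of these calls were lost without any 1 of their 4 libraries, with adjusted p of 0.0789 to 0.17 and 0.11 to 0.241. The third was lost without either KPCML1 muscle or the second KPC muscle (up to 0.113). Slc30a9 was lower in C26 (-0.66 ± 0.16, edgeR adjusted p 0.01) and KPP (-0.50 ± 0.16, 0.0245), and its adjusted p reached 0.0783 and 0.193 when the second control or the second tumour muscle of the model was left out. Mtf1, which encodes the zinc sensor, was called in no model, with log2 differences between -0.26 and 0.23 (SE 0.19 each) and edgeR adjusted p of 0.315 to 0.917. The other metallothioneins were not called either. Mt3 was at most 2.34 CPM in a group mean, in C26, and Mt4 was at 0 in the LLC, KPC and KPCML1 comparisons.

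**Figure D4:**
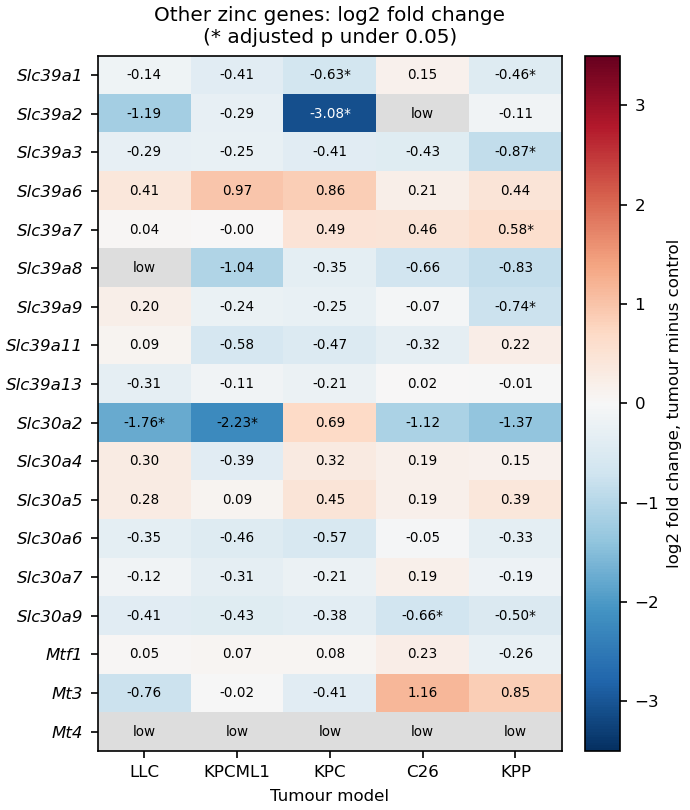
Log2 difference between tumour-bearing and control muscle for the 18 other zinc genes that could be tested, by model. Stars mark an adjusted p under 0.05 by edgeR, and grey cells marked low have a mean under 0.5 CPM in both groups. Of the 10 starred cells, 9 lie between -3.08 and -0.46, and the other is 0.58 for Slc39a7 in KPP.

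Factors that act downstream of cytokines, glucocorticoids, hypoxia and oxidative stress were listed as possible regulators of the metallothioneins. Of these 8 genes, the edgeR test called 4 higher in LLC, 6 in KPC, 2 in KPCML1, 4 in C26 and 4 in KPP, and 0 lower in any of them. Over all tested genes 7.39%, 15.3%, 4.16%, 11.5% and 17.4% were called higher, in that order. This list was chosen with earlier results of these data known, so its counts are not independent of that choice. Whether these factors act on the metallothioneins was not tested. Cebpd, a factor induced by inflammatory cytokines, was higher in all 5 models, by a log2 difference of 4.63 ± 0.43 in KPC, 4.42 ± 0.43 in KPP, 4.05 ± 0.42 in KPCML1, 2.79 ± 0.40 in C26 and 2.46 ± 0.40 in LLC. Its adjusted p was 3.18e-05 to 0.00153 by edgeR, and the calls held without any 1 library. Cebpb was higher in all 5 too, from 0.95 ± 0.32 in C26 to 2.47 ± 0.33 in LLC. The C26 call was lost (adjusted p up to 0.452) without either control or the second tumour muscle, and the KPCML1 call (1.38 ± 0.32) was lost (up to 0.159) without either control or the second KPCML1 muscle. Jun was higher in LLC (1.89 ± 0.22, edgeR adjusted p 2.34e-04) and C26 (0.85 ± 0.22, 0.0134). Hif1a was higher in KPC (0.96 ± 0.19, 0.00282) and higher in KPC than in KPCML1 (0.87 ± 0.19, 0.0219). With 1 library left out the latter was 0.48 to 1.17. Single libraries decided both Hif1a calls and the C26 call of Jun. Nfe2l2 was also called higher in LLC, KPC and KPP and Nr3c1 in KPC, both named here after their values were seen. Stat3, the main effector of interleukin-6 signals, was called in KPC (1.48 ± 0.37), C26 (1.87 ± 0.37) and KPP (1.44 ± 0.37). Its adjusted p reached 0.07 in KPC (lost without either control or the second tumour muscle), 0.0532 in C26 (without the second control) and 0.158 in KPP (without the second control or the second tumour muscle).

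ZIP14 also carries iron, so 14 genes of iron handling were read beside it. Tfrc, which encodes the transferrin receptor, was lower in all 5 models, at 11.3 ± 0.139 CPM in C26 against 109 ± 7.28 in its controls (SD, n = 2) and at 29.0 ± 2.89 CPM in LLC against 363 ± 40.2. The log2 difference was -3.65 ± 0.51 in LLC, -3.27 ± 0.50 in C26, -3.19 ± 0.49 in KPC, -2.96 ± 0.49 in KPCML1 and -2.51 ± 0.48 in KPP. The edgeR adjusted p was 6.60e-04 to 0.00372, and all 5 calls held without any 1 library. Beside these values, the log2 difference of Slc39a14 was 0.72 ± 0.73 in LLC and 4.82 ± 0.82 in KPC. With counts scaled for transcript length it was 1.29 in LLC and 4.97 in KPC. The LLC value of 1.29 is built on TPM, in which short transcripts with few fragments weigh heavily. Steap3, a ferrireductase of endosomes, was lower in all 5 models, from -0.90 ± 0.24 in LLC to -1.85 ± 0.24 in KPC. The LLC call was lost without any 1 library (adjusted p up to 0.194), and those of KPCML1 (-1.25 ± 0.24) and C26 (-1.03 ± 0.24) were lost without 2 single libraries each, namely the second Matrigel control or second KPCML1 muscle, and the first C26 control or second C26 tumour muscle (up to 0.122 and 0.117). Ftl1, the light chain of the iron store ferritin, was higher in LLC (1.27 ± 0.17), C26 (1.00 ± 0.17) and KPP (0.83 ± 0.17), each kept without any 1 library. In KPCML1 its call (0.71 ± 0.17) was lost without any 1 library (0.0561 to 0.213). In all, 2 of the 14 iron genes were higher and 2 lower in LLC and KPCML1, 3 and 2 in KPC, 3 and 3 in C26 and 2 and 5 in KPP. Over all tested genes the shares higher and lower were 7.39% and 6.23% in LLC, 4.16% and 4.38% in KPCML1, 15.3% and 13.7% in KPC, 11.5% and 9.8% in C26 and 17.4% and 19.3% in KPP.

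**Figure D5:**
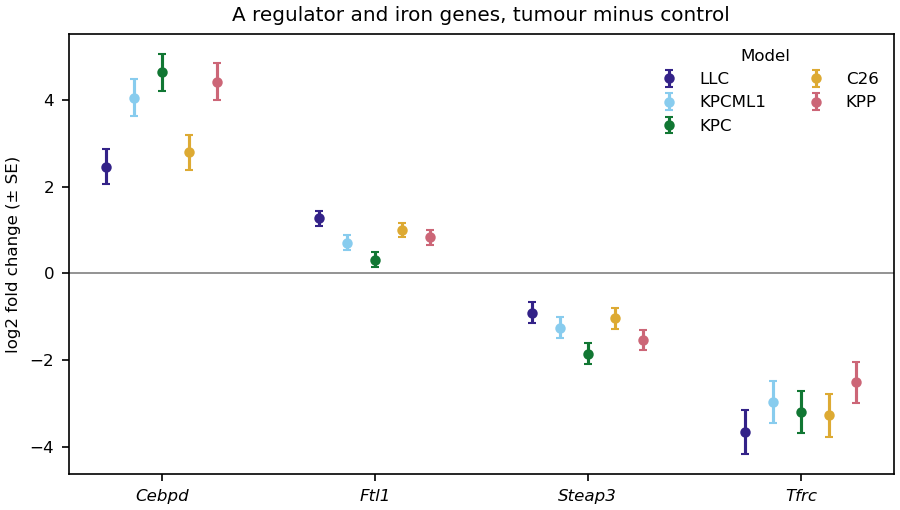
Log2 difference between tumour-bearing and control muscle for the factor Cebpd and the iron genes Ftl1, Steap3 and Tfrc, by model, with the SE of the fit as bars and 2 libraries per group. Cebpd lies between 2.46 and 4.63 and Tfrc between -3.65 and -2.51 in the 5 models.

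Markers of blood cells and of other cell types moved in several of the same muscles. The summed CPM of 8 neutrophil markers was 1.16 to 2.72 in the controls, 51.6 to 71.0 in KPC, 20.3 to 61.9 in KPP, 17.2 to 32.7 in KPCML1, 8.92 to 26.3 in C26 and 6.69 to 8.39 in LLC. Of the 7 that could be tested, edgeR called 6 higher in KPC, 5 in KPP, 4 in KPCML1 and C26 and 2 in LLC. Over all tested genes the share called higher was 15.3% in KPC, 17.4% in KPP, 4.16% in KPCML1, 11.5% in C26 and 7.39% in LLC. These shares also stand beside the markers below. Ly6g was at 0 in C26, where 4 others were higher. Of 8 macrophage markers, 3 were called higher in KPCML1, 2 in KPP, 1 in KPC and 0 in LLC and C26, with sums of 19.6 to 48.4 CPM in controls and 20.6 to 65.0 CPM with a tumour. The 6 erythroid markers summed to 294 to 890 CPM in controls and up to 6831 CPM in KPCML1, and all 6 were higher in KPC and KPCML1, 5 in LLC and 0 in C26 and KPP. Of 6 endothelial markers, 5 were lower in KPP, where they summed to 84.3 to 116 CPM against 207 to 218 CPM. In C26, 4 of the 8 myofibre markers were lower. Over all tested genes the share called lower was 19.3% in KPP, 9.8% in C26, 13.7% in KPC, 6.23% in LLC and 4.38% in KPCML1. The 4 satellite cell markers summed to 15.2 to 21.9 CPM in controls and 29 to 71.3 CPM with a tumour. Of these 4, 1 was called higher and 0 lower in LLC and in C26, and 1 higher and 1 lower in KPC. In KPCML1 0 were called higher and 1 lower, and in KPP 1 higher and 2 lower. The higher sums therefore do not stand for all 4 markers. Of 5 mural (vessel wall) markers, 5 were lower in KPP, 2 in KPC and 1 in LLC. Of 5 adipocyte markers, 4 were lower in C26 and KPP, whereas 2 were higher in KPC and KPCML1 and 1 in LLC. The part of these cells in the levels of the metallothioneins and Slc39a14 was not tested. In bulk muscle, fewer cells of a type and less RNA per cell cannot be told apart.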

How the data were processed

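Per the submitters' processing notes, bcl2fastq 2.20 and Salmon were used, with build mm10. Which Salmon version, strand option and transcript release were used is not stated there. Each deposited library table holds, per transcript, the estimated count of fragments, the TPM (scaled for length and depth by the authors' run of Salmon) and the effective length. The authors' deposited tables of comparisons hold log2 fold changes made with DESeq2, and 4 were used, only for values credited to them.

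Transcripts were matched by identifier to GENCODE M21 (139958 of 140825 matched, and the others held 0.412 to 0.685% of fragments). Estimated counts were summed per gene, rounded, filtered with filterByExpr, scaled by TMM and fitted with edgeR 4.0.16 (quasi-likelihood) in 1 model of 9 groups, with 9 residual degrees of freedom, and p-values were adjusted over 16096 genes by Benjamini and Hochberg. Genes under 0.05 were called. Intervals cover the spread between libraries of this model. On simulated counts for the LLC comparison over 16096 genes, 77% of 100 genes changed 4-fold and 21% of 100 genes changed 2-fold were called, and 1 of 15896 unchanged genes. Each simulated gene took the spread that the fit expects at its level, with no excess of its own. In LLC the SE was 0.64 for Mt1, 0.86 for Mt2 and 0.73 for Slc39a14, against 0.32 for Slc39a10 and Slc30a1. The simulation therefore does not give the rates for genes as variable as Mt1, Mt2 and Slc39a14. Fragments shared by Mt1 and Mt2 were divided by Salmon, and the spread is estimated from 2 libraries per group.

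The 5 genes, the lists and the markers were chosen with earlier results of these data known. Counts of calls within them are not independent of that choice. Named are the 5 genes and Mtf1, up to 4 called zinc genes of smallest p per comparison, up to 2 called genes of each list of regulators, other MTF-1 targets, iron and copper handling, the 3 genes most like each of the 5 over 18 libraries, and transcripts with at least 5% of the fragments of a gene. Alternatives were relative log expression size factors, DESeq2 1.42.0, no filter on low counts, length-scaled counts, a replicate block, a fit of only the 4 libraries compared, and leaving out each library.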

Additional observations from a re-analysis of the deposited data

Results flagged for a closer look

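KPC and KPCML1 muscles, whose tumour contrasts share their controls, differed in Mt1 by 2.82, in Mt2 by 3.79 and in Slc39a14 by 2.87 on the log2 scale (KPC minus KPCML1), each past the threshold of edgeR's quasi-likelihood test of that difference. Each call was lost without the first KPCML1, the second KPCML1 or the second KPC muscle, with adjusted p up to 0.173, 0.171 and 0.409. The 2 KPC libraries were above the 2 KPCML1 libraries for each gene. The test draws on the tumour values that the listing used, so it is not independent of the listing.

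Slc39a10 stood out because its libraries moved in opposite ways in different models. Both C26 muscles were above their controls (log2 0.61), whereas both LLC muscles (-0.30) and both KPP muscles (-0.91) were below theirs. Slc30a1 was above the controls in both LLC muscles (0.39) and below them in both KPCML1 muscles (-0.24) and both KPP muscles (-0.28). These differences between models were not tested.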

How the results depend on the processing

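Groups of 2 libraries limit every comparison, and control levels of Mt2 rest on few fragments. Replicate numbers did not pair the samples (correlation of the deviations of same-numbered libraries -0.172 to 0.093). With the replicate block the difference between KPC and KPCML1 gave an edgeR adjusted p of 0.041 for Mt1, 0.0604 for Mt2 and 0.0905 for Slc39a14, and 15 of the 59 calls of other named genes were lost. The block called 1327 genes in LLC, 689 in KPCML1, 242 between KPC and KPCML1 and 299 among the controls, and of the zinc list 0 in LLC, 1 in KPP and 0 among the controls. In the main fit these were 2191, 1374, 964 and 449 genes, and 1, 5 and 1 zinc genes.

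Fitting only the 4 libraries compared gave 3940 genes in LLC, 2586 in KPC (4678 in the main fit) and 3424 in KPP (5912), and 3 zinc genes in LLC, 1 in KPC, 2 in C26 and 0 in KPP. Without the filter on low counts there were 2244 genes in KPCML1, 1977 between KPC and KPCML1 and 1882 among the controls, and 2 zinc genes in C26 and 3 among the controls. Mt1 and Mt2 then passed among the controls, with edgeR adjusted p of 1.20e-07 and 1.11e-31. Between KPC and KPCML1 the same fit gave 1.79e-29 and 3.35e-49, where the main fit gave 0.0242 and 0.0219. Among the controls the likelihood-ratio test of DESeq2 gave an adjusted p of 0.683 for Mt1 and 0.0951 for Mt2. The p-values of the unfiltered fit stand far below those of the other fits and were not read as a difference between controls. DESeq2 gave 1742 genes between KPC and KPCML1 and 843 among the controls, and 2 zinc genes in LLC and 3 in KPCML1. Length-scaled counts gave 607 genes between KPC and KPCML1, and 0 zinc genes in LLC, 4 in KPC and 0 among the controls. The cause of these shifts was not tested.

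Leaving out 1 library at a time gave 479 to 1255 genes in LLC, 1925 to 4605 in KPC, 138 to 863 in KPCML1, 1020 to 3359 in C26, 3193 to 5035 in KPP, 19 to 1984 between KPC and KPCML1 and 190 to 600 among the controls. The zinc genes called were 0 in LLC and KPCML1, 2 to 6 in KPC, 0 to 2 in C26, 1 to 3 in KPP, 0 to 3 between KPC and KPCML1 and 0 to 1 among the controls. Of the 59 calls of other named genes, 23 were kept in all of these fits. Between KPC and KPCML1 the sign of Slc39a10 turned (0.24 without the first KPCML1 muscle, 0.20 without the second KPC muscle), as did that of Slc30a1 (-0.01 without the second KPC muscle). Over these fits Slc39a10 ranged from -0.48 to 0.24 and Slc30a1 from -0.01 to 0.73. With length-scaled counts the difference of Slc39a14 in LLC was 1.29 in place of 0.72. These counts are built on TPM, in which short transcripts with few fragments weigh heavily. Size factors by relative log expression moved no total count of calls, both directions together, by more than 1.5 times. By direction, the copper genes called in C26 went from 1 higher and 1 lower to 0 higher and 2 lower.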

Other observations

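Copper, which metallothioneins also bind, was followed through 11 genes, of which 10 could be tested. Sod1, the copper-zinc superoxide dismutase, was higher in KPP by a log2 difference of 1.58 ± 0.24 (473 ± 130 against 158 ± 42.5 CPM, SD, n = 2), with an adjusted p of 3.65e-04 by edgeR's quasi-likelihood test that held without any 1 library. It was also called higher in KPC (1.06 ± 0.24), KPCML1 (0.85 ± 0.24) and C26 (0.73 ± 0.24). These calls were lost without either Matrigel control in KPC (edgeR adjusted p up to 0.0547), without either control or the second tumour muscle in KPCML1 (up to 0.394) and without any 1 library in C26 (0.1 to 0.202). Sco1, which delivers copper to cytochrome oxidase, was lower in KPP (-1.14 ± 0.25), where the call held without any 1 library. Its calls in KPC (-1.10 ± 0.24) and LLC (-0.87 ± 0.24) were lost without the second Matrigel control (0.0549) and without any 1 LLC library (up to 0.243). In all, 0 copper genes were higher and 2 lower in LLC, 1 and 2 in KPC, 1 and 0 in KPCML1, 1 and 1 in C26 and 2 and 3 in KPP. Over all tested genes the shares higher and lower were 7.39% and 6.23% in LLC, 15.3% and 13.7% in KPC, 4.16% and 4.38% in KPCML1, 11.5% and 9.8% in C26 and 17.4% and 19.3% in KPP.

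Of 4 other genes described as targets of MTF-1, 1 was higher in LLC, 2 in KPC, 1 in KPCML1, 0 in C26 and 1 in KPP, where 1 was lower, beside the same shares over all tested genes. Ndrg1 was higher in KPC (1.01 ± 0.24) and KPCML1 (0.94 ± 0.24) and lower in KPP (-0.91 ± 0.24). Gclc, which encodes an enzyme of glutathione synthesis, was higher in KPC (1.25 ± 0.29) and KPP (0.93 ± 0.29). Single libraries decided each of these calls. For Ndrg1 the call was lost in KPC without the second Matrigel control or the second tumour muscle (edgeR adjusted p up to 0.175), in KPP without the second tumour muscle (0.118) and in KPCML1 without any 1 library (up to 0.259). For Gclc it was lost in KPC without the second Matrigel control or the second tumour muscle (up to 0.0871) and in KPP without either control or the second tumour muscle (up to 0.226).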
